A study of Mus musculus with 6 samples.

Results

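The 10 genes described here encode receptors, an adaptor, inflammasome subunits and cytokines of the innate immune response: Tlr2, Tlr4, Cd14, Myd88, Nlrp3, Pycard, Casp1, Il18, Tnf and Il1rn. They were chosen by symbol among the 18453 genes with at least 1 count in any liver library, and all 10 had counts. The choice was made with earlier results of these data known. Of the 10, 9 passed the filter on low counts and were tested, among 13431 genes tested in all, and Tnf did not. A gene that is high in 1 group can pass such a filter through that group alone, so the number passing supports nothing about direction.

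Bulk RNA-seq was measured in livers of 6 male mice homozygous for a floxed Mettl14 allele (Mettl14f/f), which encodes a subunit of the m6A RNA methyltransferase. All 6 were placed on a high fat diet (HFD) at 8 weeks of age, received a viral vector by tail vein after 10 weeks of HFD, and were sampled 8 weeks after the injection. The livers of 3 mice given AAV8-TBG-Cre were compared with those of 3 mice given AAV8-TBG-GFP, which the sample labels call METTL14 KO and WT although the GFP mice carry the same floxed alleles. The TBG promoter drives Cre in hepatocytes, so macrophages, endothelial cells, stellate cells and bile duct cells of the same livers are not targeted. Library totals lay between 20356440 and 21010508 counts.

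Mettl14 itself was measured at 6.30, 6.43 and 5.81 CPM (counts scaled to a common library size by TMM) in the GFP livers and at 4.96, 5.38 and 4.86 CPM in the Cre livers. The groups did not overlap, with means of 6.18 ± 0.326 and 5.07 ± 0.275 (SD, n = 3), and the log2 fold change was -0.29 (SE 0.15, edgeR adjusted p = 0.337). The difference passed neither threshold used here. Cells that the vector's promoter does not target also contribute Mettl14 RNA to a whole liver, and their share was not tested.

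Toll-like receptors recognise microbial products at the cell surface or in endosomes. TLR4 binds lipopolysaccharide delivered by CD14, TLR2 binds bacterial lipoproteins, and both pass the signal through the adaptor MYD88 to NF-kB, which drives genes such as Tnf and Nlrp3. The NLRP3 inflammasome is assembled from the sensor NLRP3, the adaptor ASC (gene Pycard) and caspase-1 (Casp1), and matures IL-1β and IL-18, while the product of Il1rn blocks the IL-1 receptor. In liver, Kupffer cells and recruited macrophages are a main site of these receptors, and the pathway is well known in steatohepatitis.

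The promoters are shown because several of these genes are known targets of NF-kB and of myeloid factors. RefSeq promoter entries (GRCm38.p6, the assembly also called mm10) matched 8 of the 10 genes, Tlr4 and Cd14 being the others. The 250 bases before each start were searched on both strands for an NF-kB consensus, for the PU.1 letters GAGGAAGT, for the AP-1 letters TGANTCA and for an interferon regulatory factor (IRF) consensus. Each line below gives a matched stretch 5′ to 3′ on the gene's strand, with the match in capitals.
Tlr2: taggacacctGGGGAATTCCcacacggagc
Nlrp3: ggcttctgcaGGGAACCCCCgggaattctg
Pycard: tccccaccccACTTCCTCcaccaaccca
Il1rn: tctgctagacTGAGTCAcgcctctgga
Myd88: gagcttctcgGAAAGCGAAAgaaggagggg

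The Tlr2 stretch (chr3:83841762-83841791, minus strand) holds an NF-kB match at -173 to -164 from the start of its promoter entry, and another match shifted by 1 base overlaps it. That start lies within the span of the gene (chr3:83836272-83841824), and so does the stretch. The Nlrp3 stretch (chr11:59541373-59541402, plus strand) holds an NF-kB match at -186 to -177. The NF-kB consensus occurred in 3.90% of 32851 promoters of the same length, and in at least 1 promoter of 4.46% of genes. Nlrp3 has 2 promoter entries and Il1rn has 3, and in each gene only 1 of them held the match. The Pycard stretch (chr7:127993894-127993921, minus strand) holds the PU.1 letters in reverse complement at -44 to -37, letters that occurred in 2.44% of promoters and 2.79% of genes. AP-1 letters stood at -141 to -135 of Il1rn (chr2:24336709-24336735, plus strand) and in 6.75% of promoters (7.82% of genes), and the IRF consensus at -40 to -31 of Myd88 (chr9:119340039-119340068, minus strand) and in 2.98% (3.46% of genes). None of the 4 motifs was found in the windows of Casp1, Il18 and Tnf, which says only that these letters are not in those 250 bases. A match is a description of the sequence and not a binding site. Of the 5 genes with a match, Tlr2, Pycard and Il1rn were called higher below, and Nlrp3 and Myd88 were not called.

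In the comparison of the vectors, Tlr2, Tlr4, Cd14, Pycard and Il1rn were higher in the Cre livers, and Myd88, Nlrp3, Casp1 and Il18 did not pass the threshold. A gene was called at an unadjusted p under 0.05 in the quasi-likelihood test of edgeR together with a fold change of at least 1.2, the threshold of the study. By this rule 5 of 9 genes were higher, where the background was 12.0% of all genes tested, and 0 of 9 were lower, where the background was 8.41%. Since the genes were chosen with earlier results known, these shares describe the set and do not test it. None of the 9 reached a Benjamini-Hochberg adjusted p under 0.05 in edgeR (background 0.931%), the smallest being 0.0729 for Il1rn. DESeq2 placed 2 of the 10, Tlr2 and Il1rn, under that adjusted threshold. Its background was 6.28% of 18416 genes with a p-value, counted whether or not DESeq2 gave them an adjusted p. In simulated counts with 200 changed genes among 13431, 18% of the DESeq2 calls at that threshold were false, against 6.79% of the edgeR calls. The false share depends on how many genes change, so these values do not rate the calls of Tlr2 and Il1rn. With limma on log2(FPKM + 1) 0 of 6 passed it (background 0.181%). The log2 fold change was positive for 7 of 9, against 49.0% of all genes, and its median was 0.68, beside -0.0065 over all genes tested. The 3 Cre livers lay above the 3 GFP livers for 5 of 9, against 14.0% of all genes.

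**Figure D1:**
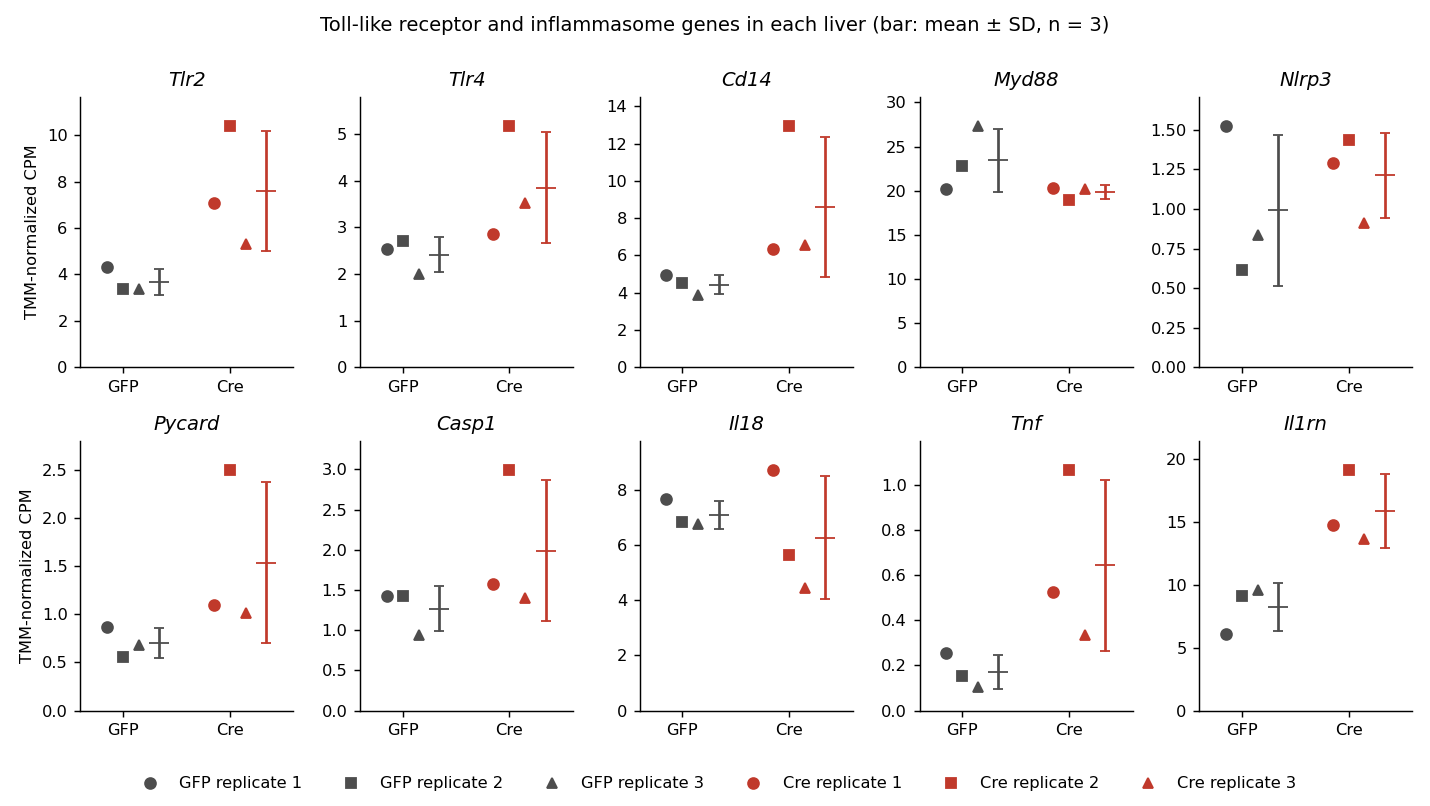
TMM-scaled CPM (vertical axis, linear, from 0) of each of the 10 genes in the 3 GFP and 3 Cre livers, 1 point per liver, with the mean and SD of each group. Tlr2, Tlr4, Cd14, Pycard, Tnf and Il1rn show all Cre livers above all GFP livers, and Cre replicate 2 is the highest library for 7 of the 10 genes.

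Cre replicate 2 had the highest CPM of the 6 libraries for 6 of the 9 genes tested, against 23.3% of all genes. Without it 3 of 9 genes remained called higher, namely Tlr2, Cd14 and Il1rn, against a background of 8.19%, and the median fell to 0.40. Without GFP replicate 3 the number called higher was also 3 (background 10.7%). In limma on log2(FPKM + 1) or log2(FPKM + 0.1) it was 3 of the 6 genes tested (15.5% and 16.4%), Tlr4 and Pycard not being tested there. The library names in the labels come in a short form (GFP replicates 1 and 2, Cre replicate 1) and a long form (GFP replicate 3, Cre replicates 2 and 3), whose meaning is not given, and fold changes within each form are stated for each gene. With the name form as a covariate 3 genes were called higher (background 10.6%). In bulk liver, more cells of a type and more RNA per cell cannot be told apart.

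Among the receptors, Tlr2 (chr3:83836272-83841824) was measured at 4.32, 3.37 and 3.35 CPM in the GFP livers and at 7.06, 10.4 and 5.29 CPM in the Cre livers. Every Cre liver lay above every GFP liver. The means were 3.68 ± 0.555 and 7.58 ± 2.59 CPM (SD, n = 3), a log2 fold change of 1.04 (SE 0.27, edgeR adjusted p = 0.0948). The log2 ratio was 0.88 within the short name form and 1.23 within the long form. Tlr2, a receptor for bacterial lipoproteins and the gene whose promoter stretch with the NF-kB match is printed above, stayed called in all 17 alternative analyses, with log2 fold changes of 0.74 to 1.24 and adjusted p from 0.0185 in DESeq2 to 0.269 without 1 library in edgeR.

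Tlr4 (chr4:66827551-66846581), the lipopolysaccharide receptor, was measured at 2.54, 2.70 and 1.99 CPM in the GFP livers and 2.86, 5.18 and 3.51 CPM in the Cre livers. The groups did not overlap, but the lowest Cre liver stood only just above the highest GFP liver. This gave a log2 fold change of 0.68 (SE 0.28, edgeR adjusted p = 0.224). Within the short name form the log2 ratio was 0.13 and within the long form it was 1.13. The call was lost without any 1 of the GFP libraries (0.71, 0.77 and 0.55 without replicates 1, 2 and 3), without Cre replicate 2 (0.40) and without Cre replicate 3 (0.74).

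Cd14, the lipopolysaccharide co-receptor that hands its ligand to TLR4, lies on chromosome 18. Its levels were 4.93, 4.49 and 3.87 CPM in the GFP livers and 6.35, 12.9 and 6.55 CPM in the Cre livers. The 3 Cre livers were all above the GFP livers, and Cre replicate 2 stood far above the other Cre livers. The log2 fold change was 0.96 (SE 0.30, edgeR adjusted p = 0.138), and it was 0.54 without Cre replicate 2, where the call held. The log2 ratios within the short and long name forms were 0.43 and 1.33.

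Myd88 (chr9:119335934-119340018), the adaptor shared by most Toll-like receptors and by the IL-1 receptor, was not called. It was measured at 20.2, 22.8 and 27.3 CPM in the GFP livers and at 20.3, 18.9 and 20.2 CPM in the Cre livers. The groups overlapped, and the log2 fold change was -0.24 (SE 0.13, edgeR adjusted p = 0.336). Within the short and long name forms the log2 ratios were -0.08 and -0.48. Leaving out GFP replicate 1 gave -0.34 and brought the gene past the unadjusted threshold as lower (edgeR adjusted p = 0.304, range over the alternatives 0.246 to 0.809, background 5.35%).

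**Figure D2:**
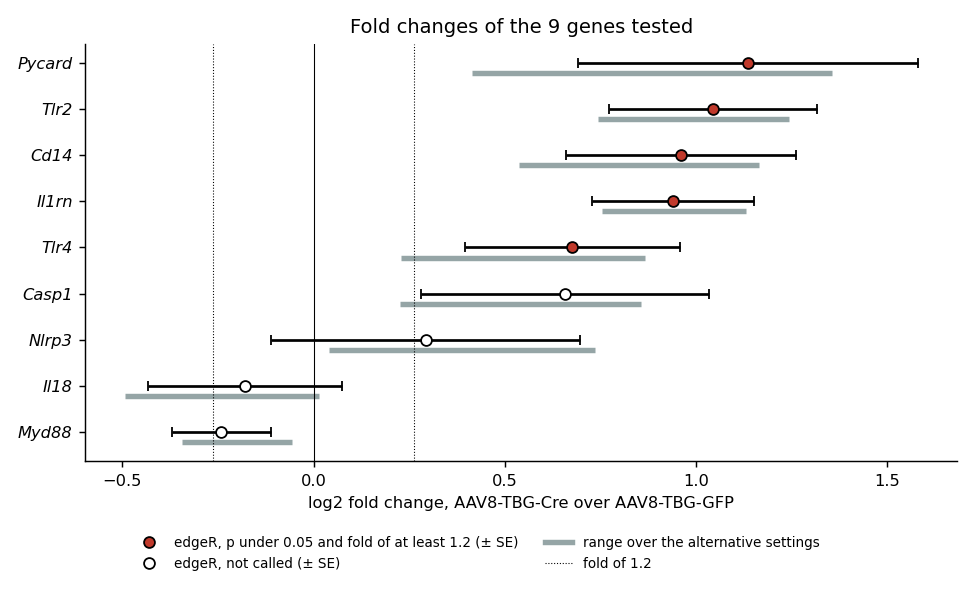
log2 fold change (Cre over GFP, horizontal axis) of the 9 genes tested by edgeR, with bars of 1 SE, grey bars for the range over the alternative analyses and dotted lines at a fold of 1.2. Pycard, Tlr2, Cd14, Il1rn and Tlr4 are called higher, with values of 1.14, 1.04, 0.96, 0.94 and 0.68, while Myd88 and Il18 lie below 0 and are not called.

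The inflammasome genes were expressed at low levels. Nlrp3 (chr11:59541569-59566955), the sensor, had 30, 12 and 16 counts in the GFP livers and 27, 35 and 19 in the Cre livers. These correspond to 1.52, 0.612 and 0.838 CPM against 1.29, 1.44 and 0.915 CPM. The highest value of all was a GFP liver, the groups overlapped, and the log2 fold change was 0.29 (SE 0.40, edgeR adjusted p = 0.726), with log2 ratios of 0.27 and 0.49 within the short and long name forms. The value ranged from 0.04 without GFP replicate 2 to 0.74 without GFP replicate 1 and was called in neither.

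Pycard (chr7:127991373-127993867) encodes ASC, which links the sensor to caspase-1. Its counts were 17, 11 and 13 in the GFP livers and 23, 61 and 21 in the Cre livers, or 0.864, 0.561 and 0.681 CPM against 1.10, 2.51 and 1.01 CPM. All Cre livers were above all GFP livers, and Cre replicate 2 stood apart from the other 2 of its group. The log2 fold change was 1.14 (SE 0.44, edgeR adjusted p = 0.206), with within-form log2 ratios of 0.62 and 1.37. Without Cre replicate 2 it was 0.58 and no longer called, and the call was also lost without GFP replicate 1, 2 or 3 (1.30, 1.00 and 1.10).

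Casp1 (chr9:5298517-5307281), the protease of the complex, was measured at 1.42, 1.43 and 0.942 CPM in the GFP livers and at 1.57, 3.00 and 1.40 CPM in the Cre livers. The groups overlapped and Cre replicate 2 alone was far above the GFP range. The log2 fold change of 0.66 (SE 0.38, edgeR adjusted p = 0.369) was not called, was 0.14 within the short name form and 1.22 within the long form, and was 0.23 without Cre replicate 2. Casp1 passed the threshold in 0 of 17 alternatives.

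Il18 (chr9:50554700-50581841), a substrate of caspase-1, had 7.67, 6.84 and 6.75 CPM in the GFP livers and 8.73, 5.63 and 4.43 CPM in the Cre livers. The Cre livers spread on both sides of the GFP livers. Its log2 fold change was -0.18 (SE 0.25, edgeR adjusted p = 0.734), and the sign differed between the short name form (0.27) and the long form (-0.43). It was called lower at -0.49 without Cre replicate 1 (edgeR adjusted p = 0.159, range over the alternatives 0.159 to 0.985, background 12.5%) and was 0.013 without Cre replicate 3. The other main substrate, Il1b, was measured at 1.07, 2.04 and 1.15 CPM in the GFP livers and 1.10, 1.64 and 1.78 CPM in the Cre livers (log2 fold change 0.087, SE 0.36, edgeR adjusted p = 0.915). Neither cytokine gene passed the threshold.

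Tnf (chr17:35199367-35202007), an inflammatory cytokine gene downstream of NF-kB, was too low to be tested. Its counts were 5, 3 and 2 in the GFP livers and 11, 26 and 7 in the Cre livers. The means were 0.171 ± 0.0762 and 0.643 ± 0.380 CPM (SD, n = 3), a ratio of 3.77, and every Cre liver was above every GFP liver. With so few counts the ratio carries a large counting error. Without the filter, the log2 difference was 1.88 in edgeR (adjusted p = 0.166), and DESeq2 estimated it at 1.91 (adjusted p = 0.155), with adjusted p of 0.143 to 0.329 over the 7 alternatives that tested the gene.

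Il1rn (chr2:24336860-24351491), which encodes the IL-1 receptor antagonist, had the smallest adjusted p of the 9. It was measured at 6.10, 9.08 and 9.63 CPM in the GFP livers and at 14.7, 19.2 and 13.6 CPM in the Cre livers. The lowest Cre liver was clearly above the highest GFP liver. The log2 fold change was 0.94 (SE 0.21, edgeR adjusted p = 0.0729), and the values within the short and long name forms were similar, at 0.96 and 0.77. It was called in all 17 alternatives, between 0.75 and 1.13, with adjusted p from 0.00522 in DESeq2 to 0.207 without 1 library in edgeR.

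Levels between genes were compared in FPKM, which scales by transcript length. In the GFP livers the order of mean FPKM was Myd88 (11.3), Il18 (7.91), Il1rn (3.16), Cd14 (2.50), Tlr2 (1.2), Casp1 (0.783), Pycard (0.31), Tlr4 (0.287), Nlrp3 (0.23) and Tnf (0.10). Neighbouring ranges overlapped for Il1rn and Cd14, for Pycard and Tlr4, for Tlr4 and Nlrp3, and for Nlrp3 and Tnf, so those orders are within the spread. In the Cre livers the mean FPKM was 10.8 ± 0.607 for Myd88, 7.84 ± 2.68 for Il18, 6.90 ± 1.98 for Il1rn, 5.60 ± 3.02 for Cd14 and 2.84 ± 1.25 for Tlr2 (SD, n = 3). Casp1 (1.42), Pycard (0.79), Tlr4 (0.517), Tnf (0.43) and Nlrp3 (0.32) followed. Myd88 and Il18 had the highest means in both groups. In the Cre livers the ranges of all neighbouring genes in the order overlapped, so that order is within the spread. For Myd88 and Il18 the ranges were 10.26 to 11.45 and 5.17 to 10.53. In Cre replicate 2 Il1rn (9.16) and Cd14 (9.09) exceeded Il18 (7.83).

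**Figure D3:**
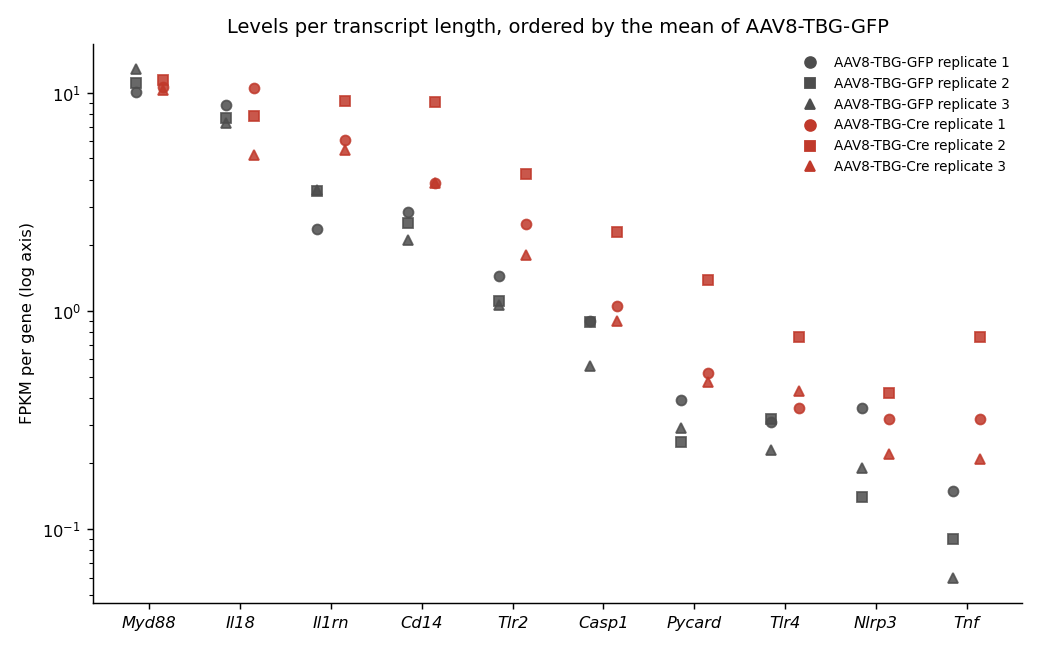
FPKM (logarithmic axis) of the 10 genes in each GFP and Cre liver, ordered by their GFP mean. Myd88 is the highest gene and Tnf the lowest in GFP livers, with means of 11.3 and 0.10.

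The wider pathway was read from lists of related genes. These lists and the marker lists below were also chosen with earlier results of these data known, so their shares are descriptions. Of the other Toll-like receptors and co-receptors, 7 of 14 tested were higher and 1 was lower (background 12.0% and 8.41%), with a median log2 fold change of 0.91, and 6 were higher without Cre replicate 2. The gene that fell was Tlr5, the flagellin receptor, measured at 22.1, 26.9 and 26.2 CPM in the GFP livers and 12.9, 11.3 and 7.89 CPM in the Cre livers. Its log2 fold change was -1.22 (SE 0.19, edgeR adjusted p = 0.0396), a fall, where Tlr2 and Tlr4 were called higher. The 7 that rose, named after their values were seen, were Ly86, Cd180, Tlr1, Tlr7, Tlr8, Tlr9 and Tlr13, with log2 fold changes from 0.95 for Tlr1 to 2.20 for Tlr9. Tlr7 and Tlr9 sense nucleic acids in endosomes, and CD180 and LY86 form a receptor complex on B cells and macrophages.

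Of 21 intracellular adaptors, kinases and brakes, 2 were higher and 2 were lower, shares near the background of 12.0% and 8.41%, and the median log2 fold change was 0.064. Irf5, a transcription factor downstream of MYD88, rose from 10.8 ± 1.54 to 17.5 ± 1.91 CPM (log2 fold change 0.70, SE 0.15, edgeR adjusted p = 0.0634). The other gene called higher, named after its value was seen, was the adaptor gene Ticam2 at 1.28, which was not called without Cre replicate 2 (0.79). Tollip, an inhibitor of the pathway, fell by 0.40 on the log2 scale, and the kinase gene Map3k7 (TAK1) fell by 0.29 (edgeR adjusted p = 0.0975 and 0.136). Neither was called lower when libraries were scaled by their totals or in limma on FPKM, where no gene of the list was lower (0 of 21 and 0 of 20).

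Of 15 NF-kB subunits and inhibitors, 6 were higher and 1 was lower (background 12.0% and 8.41%), with a median of 0.32. Tnip1, which restrains NF-kB together with A20, rose from 15.2 ± 1.83 to 22.9 ± 2.97 CPM (log2 fold change 0.59, edgeR adjusted p = 0.0806). Nfkbie, an IκB inhibitor, rose by 0.81 on the log2 scale, and Nfkb2, which encodes the p100 precursor, by 0.46. All 3 stayed called in 17 of 17 alternatives. The gene that fell, named after its value was seen, was Chuk (-0.57), which encodes the kinase IKKα.

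Among 19 other inflammasome and pyroptosis genes tested, 6 were higher and 3 were lower (background 12.0% and 8.41%). Without Cre replicate 2 only Casp4 and Panx1, 2 of 19, were higher, a share near the background of 8.19%. Casp4, the caspase that senses intracellular lipopolysaccharide (caspase-11 in mice), was measured at 0.915, 1.22 and 0.995 CPM in the GFP livers and 2.48, 3.08 and 1.83 CPM in the Cre livers (log2 fold change 1.24, SE 0.30, edgeR adjusted p = 0.0832). Panx1, a membrane channel gene, rose by 1.69 on the log2 scale. Casp8, a caspase of death receptor signalling, fell by 0.35, a call that was lost when libraries were scaled by their totals and in limma on FPKM. The others that fell, named after their values were seen, were Nlrp12 (-0.72) and Txnip (-0.91), whose groups overlapped and which were not called without Cre replicate 2 (-0.56) or in 13 of 17 alternatives, respectively. Of 14 other IL-1 and TNF family genes tested, 3 were higher and 0 lower (background 12.0% and 8.41%), with a median of 0.17. These were Ltb (lymphotoxin beta, 2.57), Il33 (0.83) and Il1a (0.52), with edgeR adjusted p of 0.0711, 0.10 and 0.20. Il1a was no longer called without Cre replicate 2 (0.36) or without any 1 of the GFP libraries.

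**Figure D4:**
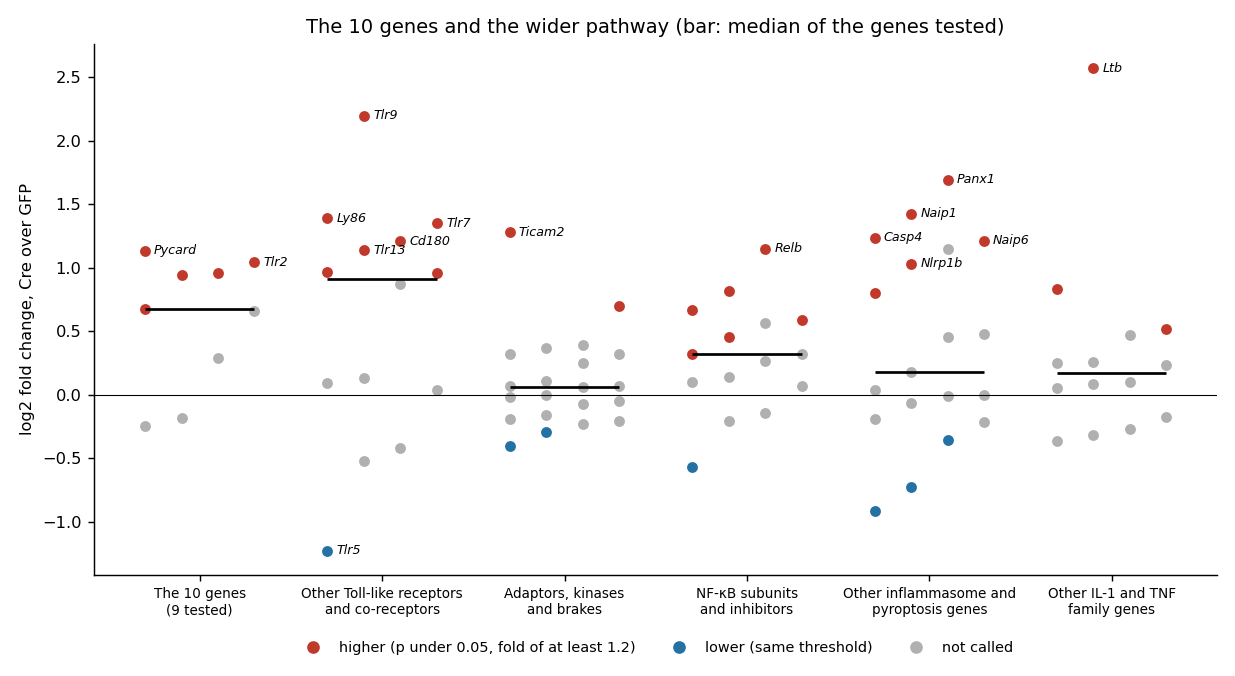
log2 fold change (Cre over GFP, vertical axis) of the 9 genes tested and of 5 lists of related genes, 1 point per gene, coloured by call, with a bar at each median. The receptor list has the highest median (0.91) and the list of adaptors the lowest (0.064), and Tlr5 lies alone at the bottom.

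Across the 6 libraries, the mean centred log2 CPM of the 9 genes was -0.14, -0.26 and -0.29 in the GFP livers and 0.15, 0.57 and -0.03 in the Cre livers. The other genes nearest to this profile, by the mean absolute difference over the 6 libraries, were Gpsm3 (0.0458), Sat1 (0.0478), Tbc1d1 (0.0483), Arrb2 (0.0522) and Itgb7 (0.0536). Within the set, Casp1 (0.145) and Pycard (0.146) lay nearest to the profile and Il18 (0.416) farthest from it. These distances describe 6 libraries and were not tested.

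Markers of liver cell types moved as well, and their part in the results above was not tested. Of 11 macrophage and Kupffer cell markers 6 were higher and 1, Cd163, was lower (background 12.0% and 8.41%, which also applies to the other marker lists), and their summed level was 195 to 228 CPM in the GFP livers and 263 to 354 CPM in the Cre livers. Of 8 recruited macrophage and monocyte markers 7 were higher, summing to 54.0 to 79.9 CPM and 128 to 341 CPM, with the top value in Cre replicate 2. Without that library 5 of the 8 were higher and their median log2 fold change was 1.08, against 1.63 with it. All 8 cholangiocyte markers were higher, summing to 72.2 to 128 CPM against 306 to 574 CPM. The summed stellate cell and fibroblast markers were 239 to 366 CPM against 467 to 972 CPM. Of these markers 4 of 9 were higher, namely Pdgfrb and the collagen genes Col1a1, Col1a2 and Col3a1. The median log2 fold change of the 9 was 0.38. Without Cre replicate 2 the number higher was still 4 of 9, while the median was 0.034.

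Single defining markers were less uniform. Adgre1, which encodes the macrophage antigen F4/80, was measured at 14.2, 10.4 and 9.79 CPM in the GFP livers and 14.6, 23.9 and 13.7 CPM in the Cre livers. Its groups overlapped, it was called higher (log2 fold change 0.60, edgeR adjusted p = 0.220), and it was not called without Cre replicate 2 (0.30). The Kupffer cell genes Clec4f (log2 fold change 0.29) and Timd4 (0.29) were not called, while Cd5l (0.71) and Vsig4 (0.36) of the same list were called higher (edgeR adjusted p = 0.0471 and 0.228). Cd163 of that list went the other way, from 5.92 ± 1.46 to 1.28 ± 0.298 CPM (log2 fold change -2.21, edgeR adjusted p = 0.0330). Marco (-0.75) was not called. The neutrophil markers summed to 15.9 to 16.3 CPM in the GFP livers and 23.8 to 24.6 CPM in the Cre livers, with 3 of 6 tested higher (S100a8, S100a9 and Csf3r). These marker genes, other than the defining ones, were named after their values were seen. S100a8 was higher (0.254, 0.306 and 0.262 CPM against 1.15, 1.15 and 1.30 CPM, edgeR adjusted p = 0.0409). Ly6g was lower (5.03, 5.97 and 5.18 CPM against 4.29, 3.70 and 3.32 CPM, log2 fold change -0.52, edgeR adjusted p = 0.177).

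Lymphocyte markers were scarce. The T and NK cell markers summed to 3.19 to 4.80 CPM in the GFP livers and 3.66 to 6.33 CPM in the Cre livers, Cd3e was too low to be tested and Trac was at 0 in every library. B cell markers summed to 1.33 to 1.47 CPM and 1.59 to 3.96 CPM, and dendritic cell markers to 4.68 to 5.55 CPM and 5.49 to 9.49 CPM. Of 5 dendritic cell markers 2 were higher, with a median log2 fold change of 1.24, or 1 and 0.69 without Cre replicate 2. Of 3 T and NK cell markers tested 1 was higher and 1 lower, and 0 and 0 without Cre replicate 2. The 1 B cell marker tested was higher. Endothelial markers overlapped between groups (128 to 199 CPM and 129 to 155 CPM), with 0 of 7 higher and 1, Stab2 (log2 fold change -0.32), lower. The number lower was 5 of 7 without GFP replicate 3 (background 7.88%) and 0 without GFP replicate 1 (background 5.35%). Hepatocyte markers summed to 110630 to 124920 CPM and 87175 to 110380 CPM, so the nearest livers of the groups were almost level. Of 8 hepatocyte markers 1 was higher and 1 lower, with a median log2 fold change of -0.22. With library totals alone 1 was higher and 0 lower (background 19.0% and 2.80%), and the median was -0.063. Alb was not called (log2 fold change -0.19, edgeR adjusted p = 0.755).

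**Figure D5:**
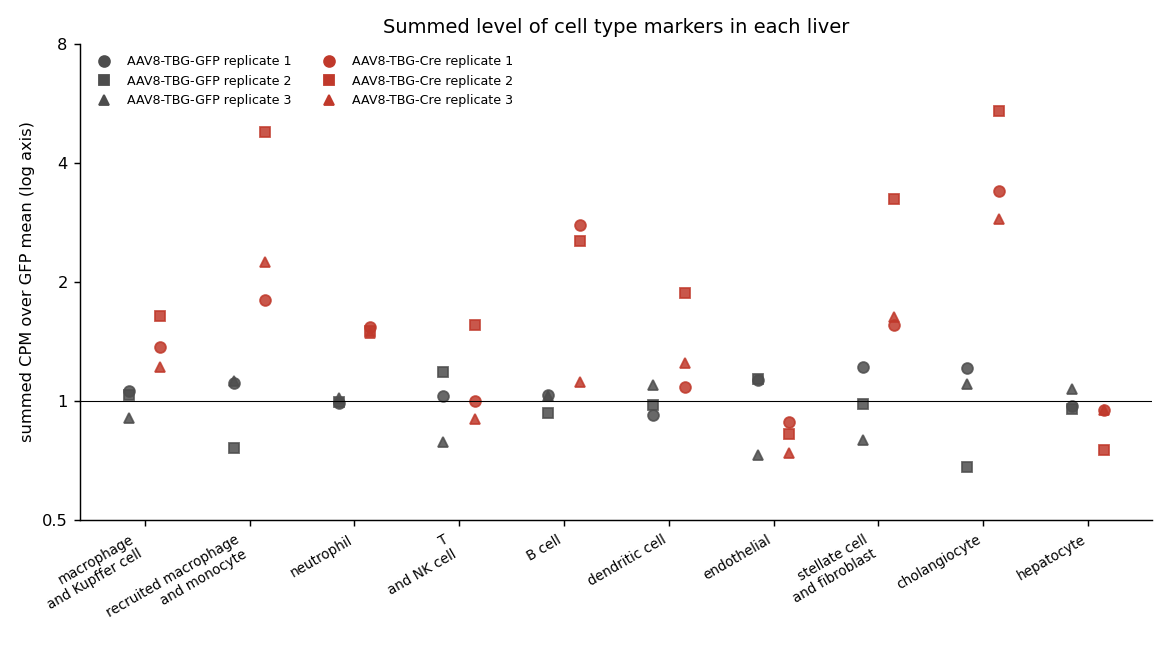
Summed CPM of the markers of each liver cell type in each GFP and Cre liver, divided by the GFP mean (logarithmic axis, line at the GFP mean). Macrophage, recruited macrophage and monocyte, neutrophil, B cell, stellate cell and cholangiocyte sums are higher in all Cre livers than in all GFP livers. The hepatocyte sum is lower, with the highest Cre liver only just below the lowest GFP liver. Endothelial, dendritic, and T and NK cell sums overlap.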

How the data were processed

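Per liver, the authors deposited expected counts of transcripts, which are estimated and often fractional (45.4% of the values were whole), and FPKM per gene, scaled by transcript length and library. The submitters' processing notes name mm10, HISAT2, Bowtie2 and RSEM, while the methods of the study name STAR, HTSeq and DESeq2, and no source used here gives a version. The expected counts of a gene's transcripts were added and rounded. Library totals of 20356440 to 21010508 leave genes near 1 CPM with large counting error, and libraries of a group differed by more than sampling noise (lowest chi-square 26.5 per gene).

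Libraries were grouped by the vector in the labels. The quasi-likelihood test of edgeR 4.0.16 (R 4.3.3) was used with TMM scaling and filterByExpr, the vector being the sole factor, and p-values were Benjamini-Hochberg adjusted over all genes tested. Alternatives used DESeq2 1.42.0, limma 3.58.1 on log2 FPKM (genes at 0.5 FPKM or more in at least 3 libraries), other scalings and filters, a replicate block, the library name form as a covariate, and each library left out in turn. Exact permutation over the 20 splits of 6 livers has a smallest two-sided p of 0.1. The steps were tested on a simulated data set of 13431 genes, of which 200 were changed, with the spread estimated by edgeR. There, false calls made up 6.79% of those at an adjusted p under 0.05 in edgeR, 18% in DESeq2 and 7.05% in limma on log2 CPM.

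The 10 genes and all lists were chosen with earlier results of these data known. Named were all 10 genes, Mettl14, Il1b, defining cell type markers, every gene of the pathway lists (not of the marker lists) at an adjusted p under 0.05, or otherwise the 3 smallest p per list among genes called, and the 5 genes of most similar pattern.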

Additional observations from a re-analysis of the deposited data

Results flagged for a closer look

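The estimates per transcript, which entered no comparison above, held transcripts that were at 0 in all GFP livers and above 0 in some Cre livers. For Il1rn, transcript NM_031167 had expected counts of 173.08 in Cre replicate 2 and 68.02 in Cre replicate 3, and 0 in the other 4 libraries, Cre replicate 1 included. The other 2 Il1rn transcripts had counts in every library. For Tnf, transcript NM_013693 had 11 counts in Cre replicate 1 and 26 in Cre replicate 2, while the counts of Cre replicate 3 and of the GFP livers were all assigned to NM_001278601. The division of reads among transcripts that share exons is an estimate, the counts of Tnf are few, and no test was run on these values. The comparisons above used the sum over transcripts.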

How the results depend on the processing

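Of 147 fold changes of single genes under 17 alternatives, 130 kept their direction and their side of the threshold, 14 lost the call, 2 gained one and 1 turned. The one that turned was Il18, at 0.013 without Cre replicate 3. The number of the 10 genes called higher was 5 in the main analysis. It was 6 in DESeq2 (background 9.61%) and 6 without the filter on low counts (10.6%), both of which also tested Tnf. With the library name form as covariate it was 3. In limma on log2(FPKM + 1) and on log2(FPKM + 0.1), where only 6 were tested, it was 3 and 3. When single libraries were left out it was 3 to 5 (background 8.19% to 14.8%). Tnf was tested without any 1 of the GFP libraries and without Cre replicate 3. It was among the genes counted without GFP replicate 1, GFP replicate 2 or Cre replicate 3. Only Tlr2, Cd14 and Il1rn were called in each of the 6 omissions. The number called lower was 0 to 1 in those omissions, the gene being Myd88 without GFP replicate 1 and Il18 (-0.49) without Cre replicate 1. DESeq2 placed 2 genes under an adjusted p of 0.05, against 0 in edgeR. The median log2 fold change was 0.38 in limma on log2(FPKM + 1) without filter, where low genes are drawn toward 0 by the pseudocount, and 0.40 to 0.94 with single libraries left out. Over all genes, the calls split into 1618 higher and 1129 lower with TMM, 1922 and 737 with upper quartile scaling, 2548 and 376 with library totals alone, an alternative chosen after seeing the data, and 1880 and 365 in limma on log2(FPKM + 1), 1995 and 376 with a pseudocount of 0.1, and 2019 and 364 without filter. Library totals moved the median of all genes to 0.16, and the median of the 9 tested stood 0.70 above it. The number of genes at an adjusted p under 0.05 was 125, and with single libraries left out it ranged from 0 without Cre replicate 2 or GFP replicate 2 to 928 without Cre replicate 1. Other counts over all genes were 7 under the block, 10 with library totals, 66 with upper quartile scaling, 372 without filter, 214 with the name form and 1157 in DESeq2.

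The replicate numbers in the labels are not stated to pair the mice. Same-numbered libraries deviated with correlations of 0.00915, -0.26 and 0.21, not every library correlated best with its own number, and the numbers were not taken as pairs. With the replicate block in edgeR 4 of the 9 genes tested were higher (background 11.2%), Pycard being the one lost, and 0 were lower (8.14%). None passed the adjusted threshold (0.0521%), and the median was 0.65.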
